A study of Mus musculus with 18 samples.

Results

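The 55 genes described here encode factors that build ribosomes in the nucleolus and shortly after it, and they were taken from a given list of symbols as 55 of the 23102 genes that the arrays named. A gene was scored as the average, on the log2 scale, of the probe sets that carry its symbol alone, and all 55 were measured, with 2 to 51 probe sets each (median 16). Utp4 was found under its older symbol Cirh1a. The list was put together with results of the talc comparisons in these arrays in view, and it does not record which values chose which gene. Counts over the list in the talc comparisons are therefore a description and carry no test of the list.

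The cells were J774, a mouse macrophage cell line, kept in medium free of phenol red, plated in 24-well plates and exposed for 24 hours. The 6 groups of 3 arrays each were vehicle, 17-β estradiol alone, talc alone, talc with estradiol, titanium dioxide (TiO2) alone, and TiO2 with estradiol. Particles were given at 10 µg per well and estradiol at 2 µg/mL. Talc is a magnesium silicate mineral, and TiO2 is a second mineral particle given at the same mass per well. Nothing in the labels tells if the 3 arrays in a group had cultures of their own, and the p-values measure only the spread among these arrays, which may be technical. All groups are 1 cell line, each array holds bulk RNA of the cultured cells, and less RNA per cell cannot be told apart from fewer cells of a kind.

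Ribosome assembly starts when RNA polymerase I transcribes the precursor of the ribosomal RNAs. Small nucleolar ribonucleoproteins (snoRNPs) modify this RNA, and a large assembly called the small subunit processome folds and cuts its 5′ part into the beginnings of the 40S subunit, while other factors build the 60S subunit and export both. The process takes up much of the synthetic capacity of a growing cell, and in macrophages it is one of the programmes that can rise when cells are activated.

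Promoter sequences are shown for 6 of the genes, because the 4 with the largest rises among those holding a CACGTG word can be read beside 1 gene that rose and 1 that did not pass, both without the word. The sequences come from RefSeq on build GRCm38.p6 and run 5′ to 3′ on the gene's strand from 250 bases before the start to 50 bases after it. Capitals mark every CACGTG (the E-box word, the same on both strands) and every CCGGAAG or its reverse complement CTTCCGG (the core word of ETS family sites).
Nop2 (chr6:125131633-125131932, plus strand): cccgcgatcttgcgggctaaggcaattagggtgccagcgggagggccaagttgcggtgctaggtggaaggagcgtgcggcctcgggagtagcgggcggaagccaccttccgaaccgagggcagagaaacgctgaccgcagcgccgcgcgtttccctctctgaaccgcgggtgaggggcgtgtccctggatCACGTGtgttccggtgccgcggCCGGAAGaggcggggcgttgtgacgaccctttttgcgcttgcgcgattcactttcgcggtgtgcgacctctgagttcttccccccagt
Tsr1 (chr11:74897830-74898129, plus strand): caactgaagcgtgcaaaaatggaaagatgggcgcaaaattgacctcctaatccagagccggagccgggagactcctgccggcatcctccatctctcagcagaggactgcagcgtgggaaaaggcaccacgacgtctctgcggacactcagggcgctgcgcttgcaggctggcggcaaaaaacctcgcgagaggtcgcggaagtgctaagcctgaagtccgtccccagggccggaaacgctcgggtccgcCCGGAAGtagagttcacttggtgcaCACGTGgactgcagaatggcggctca
Wdr43 (chr17:71615965-71616264, plus strand): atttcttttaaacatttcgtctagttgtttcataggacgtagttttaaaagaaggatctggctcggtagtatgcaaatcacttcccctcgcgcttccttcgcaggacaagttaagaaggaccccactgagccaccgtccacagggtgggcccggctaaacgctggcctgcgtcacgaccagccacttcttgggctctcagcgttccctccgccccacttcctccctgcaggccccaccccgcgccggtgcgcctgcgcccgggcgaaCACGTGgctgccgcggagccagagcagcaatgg
Utp4 (chr8:106893390-106893689, plus strand): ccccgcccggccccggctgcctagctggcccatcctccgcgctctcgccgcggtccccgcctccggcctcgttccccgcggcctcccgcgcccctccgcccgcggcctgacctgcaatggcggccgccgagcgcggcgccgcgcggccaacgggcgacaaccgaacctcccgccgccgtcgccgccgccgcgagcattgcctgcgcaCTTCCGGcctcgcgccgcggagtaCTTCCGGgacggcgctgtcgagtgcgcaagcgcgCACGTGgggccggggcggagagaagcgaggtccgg
Gnl3 (chr14:31019082-31019381, minus strand): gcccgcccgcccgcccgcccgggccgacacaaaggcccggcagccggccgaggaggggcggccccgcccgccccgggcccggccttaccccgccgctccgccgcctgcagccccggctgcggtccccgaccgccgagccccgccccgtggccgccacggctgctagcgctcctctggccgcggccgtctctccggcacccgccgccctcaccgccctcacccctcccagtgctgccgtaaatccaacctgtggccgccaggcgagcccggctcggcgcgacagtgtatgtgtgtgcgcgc
Ncl (chr1:86359406-86359705, minus strand): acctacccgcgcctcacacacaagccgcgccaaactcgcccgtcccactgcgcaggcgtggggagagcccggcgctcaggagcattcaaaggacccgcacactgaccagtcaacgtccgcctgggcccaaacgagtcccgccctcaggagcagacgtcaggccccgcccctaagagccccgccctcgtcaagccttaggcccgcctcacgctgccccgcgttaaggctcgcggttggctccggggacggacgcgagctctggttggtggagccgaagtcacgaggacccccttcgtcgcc
The E-box word lay 60 bases before the start in Nop2 and 24, 17 and 15 bases after it in Tsr1, Wdr43 and Utp4, counting the start as 0. RefSeq windows were matched for 45 of the 55 genes (52 windows, since 6 genes have more than 1 start, some with overlapping windows). The genes without one were Utp6, Utp11, Utp23, Nol6, Fbl, Rrp12, Bop1, Rrs1, Npm1 and Pinx1. At least 1 CACGTG stood in the windows of 12 of the 45 genes (26.7%), and in 8.09% of all 27025 genes with a window of that length and 8.91% of the protein-coding ones. CCGGAAG on either strand stood in 14 of the 45 (31.1%), against 9.93% of all genes and 12.9% of the protein-coding ones. ATGGCGGC on either strand, the core word of YY1 sites, stood in 4 (8.89%, all genes 2.60%). No 2 of the words printed in capitals overlapped. A match is a description of letters and not a bound site, and neither Gnl3 nor Ncl held any of these words.

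Most of the 55 genes rose with talc, and none fell past the threshold. Against vehicle 41 of 55 rose and 0 fell at an adjusted p under 0.05, where 3.94% of all 23102 genes rose and 4.52% fell. The median change of the 55 was 0.63 on the log2 scale (quartiles 0.40 and 0.79), the median over all genes was 0.02, and the list ran from -0.03 for Nop10 to 1.5 for Rrp12. With estradiol in both groups, 43 rose and 0 fell (4.13% of all genes rose and 3% fell), and the median change was 0.58, from -0.17 to 1.42. All 55 genes lie above the median gene value, and among the 11551 genes above it 7.16% rose and 8.64% fell with talc, and 7.79% and 5.47% under estradiol. These 2 comparisons share no arrays, and 38 genes rose in both, 46 in at least 1 and 9 in neither. The shares of all genes for such joint counts are not given, here or for the roles and lists below.

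The shift was visible in the separate arrays. Averaged over the 55 genes, log2 intensity lay between 7.57 and 7.70 in the 3 vehicle arrays, 7.53 and 7.64 with estradiol, 7.51 and 7.72 with TiO2, and 7.49 and 7.55 with TiO2 and estradiol. The talc arrays lay between 8.18 and 8.29 and the talc arrays with estradiol between 8.10 and 8.24, above every array without talc. The talc arrays did not overlap the vehicle arrays, and lay above them, for 47 of the 55 genes (13.6% of all genes). With estradiol in both groups this held for 48 (14.2%). For 42 of the 55 genes all 6 talc arrays lay above all 12 others, which 3.89% of all genes did. Changes below are given on the log2 scale as talc against vehicle and then talc with estradiol against estradiol, each with the standard error of limma's model over all 18 arrays and Benjamini-Hochberg adjusted p-values over all genes.

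**Figure D1:**
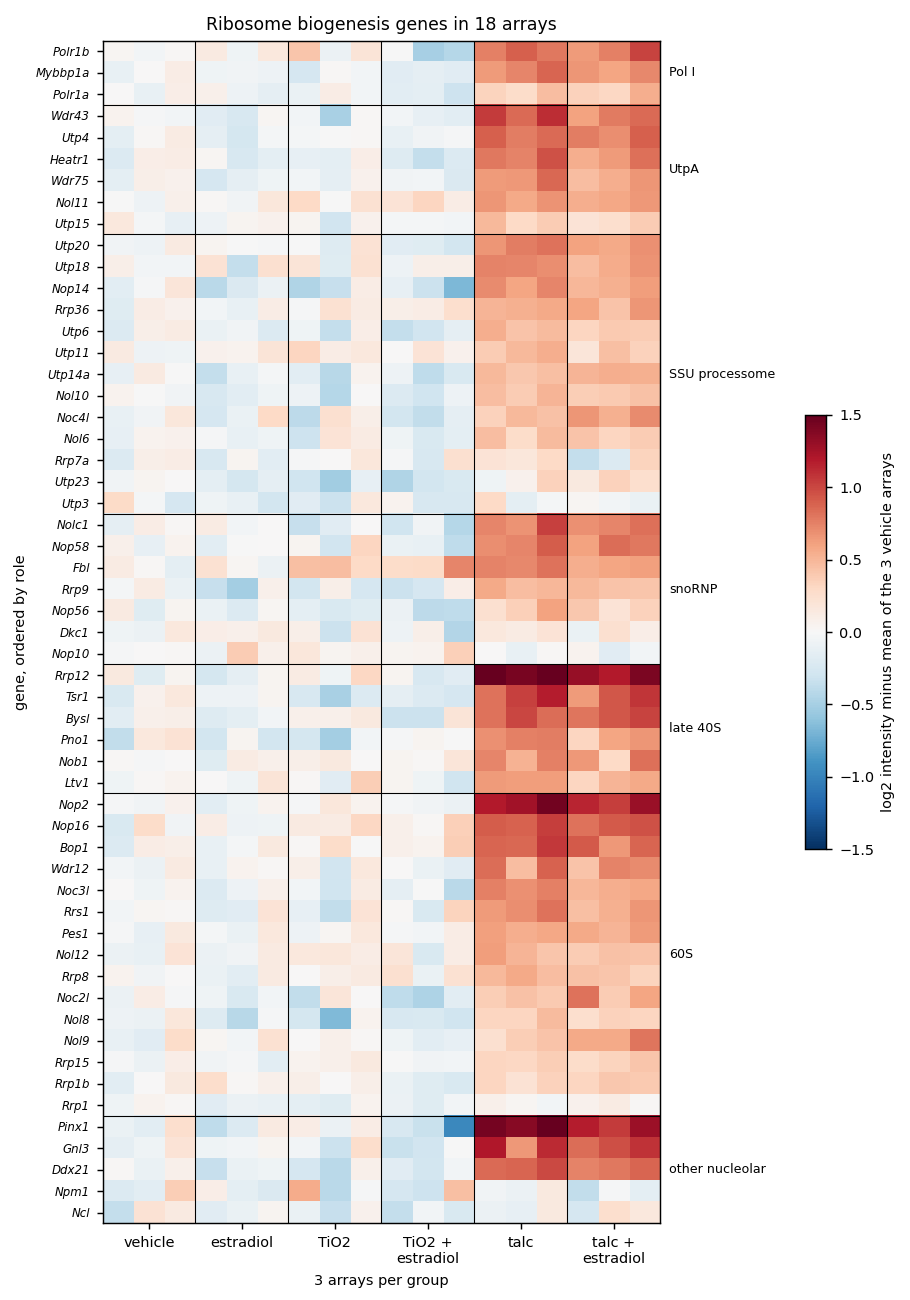
Each row is 1 of the 55 genes, grouped by role, and each column 1 of the 18 arrays. Colour gives the log2 intensity minus the mean of the 3 vehicle arrays, red for higher and blue for lower, with the scale ending at 1.5 either way. The 6 talc columns at the right are red for most rows, while the rows of Ncl, Npm1, Nop10, Dkc1, Utp3 and Rrp1 stay pale there.

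All 3 genes tied to RNA polymerase I transcription rose in both comparisons. The leading one by its p was Mybbp1a, a nucleolar protein that binds the polymerase, with log2 intensities of 9.39, 9.51 and 9.62 with vehicle and 10.14, 10.24 and 10.38 with talc. Under estradiol it read 9.44, 9.45 and 9.43, and 10.17, 10.10 and 10.23 once talc was added. Its TiO2 arrays read 9.26, 9.52 and 9.47 alone and 9.34, 9.37 and 9.34 with estradiol, so the 6 talc arrays stood clear of all others. Mybbp1a rose by 0.75 ± 0.10 (1.68-fold, adjusted p = 0.00012) and by 0.73 ± 0.10 (adjusted p = 0.00022). Polr1b, the second largest subunit, rose by 0.82 ± 0.14 and 0.73 ± 0.14. Polr1a, the largest subunit, rose least of the 3, by 0.36 ± 0.11 (adjusted p = 0.046) and 0.44 ± 0.11 (adjusted p = 0.015).

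The UtpA complex, also called t-UTP, is the first module to bind the growing ribosomal RNA precursor, and its loss also slows RNA polymerase I. All 6 members rose with talc and 5 of 6 rose with talc under estradiol. Utp4, known as cirhin, read 9.24, 9.41 and 9.51 with vehicle and 10.28, 10.16 and 10.24 with talc. It read 9.25, 9.12 and 9.36 with estradiol and 10.16, 10.08 and 10.28 with talc and estradiol. In the TiO2 arrays it read 9.36, 9.38 and 9.41, and with estradiol 9.28, 9.33 and 9.37, inside the span of the vehicle arrays. Utp4 changed by 0.84 ± 0.10 (1.79-fold, adjusted p = 3.9e-05) and 0.93 ± 0.10 (1.91-fold, adjusted p = 3.4e-05). Wdr43, another scaffold of the complex, had the largest change of the complex with talc alone, 1 ± 0.13, and rose by 0.87 ± 0.13 under estradiol. Heatr1, Wdr75 and Nol11 rose by 0.83 ± 0.12, 0.71 ± 0.11 and 0.63 ± 0.10 with talc and by 0.79 ± 0.12, 0.70 ± 0.11 and 0.54 ± 0.10 with talc under estradiol. Utp15 had the smallest change of the complex, a rise of 0.39 ± 0.11 (adjusted p = 0.035) with talc and a difference of 0.26 ± 0.11 (adjusted p = 0.19) that did not pass under estradiol.

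Of the 13 other small subunit processome factors, 9 rose with talc, 10 with talc under estradiol and 8 in both, with medians of 0.45 and 0.53. Utp20, a very large scaffold protein, had the smallest p. It read 6.78, 6.75 and 6.96 with vehicle, 7.49, 7.60 and 7.64 with talc, 6.87, 6.82 and 6.81 with estradiol and 7.43, 7.40 and 7.51 with both. Its TiO2 arrays, at 6.82, 6.64 and 7.05 alone and 6.66, 6.65 and 6.55 with estradiol, all stayed under the talc arrays. Utp20 changed by 0.74 ± 0.10 (adjusted p = 0.00022) and 0.61 ± 0.10 (adjusted p = 0.0017).

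Most other genes of the processome also rose in at least 1 of the comparisons. Utp18 and Utp6, of the UtpB module, rose by 0.73 ± 0.15 and 0.48 ± 0.12 with talc and by 0.53 ± 0.15 and 0.48 ± 0.12 under estradiol. Nop14 and its partner Noc4l changed by 0.68 ± 0.16 and 0.42 ± 0.16 with talc, where Noc4l did not pass (adjusted p = 0.13), and rose by 0.79 ± 0.16 and 0.66 ± 0.16 under estradiol. Rrp36, Nol10 and Nol6 rose by 0.54 ± 0.11, 0.45 ± 0.11 and 0.40 ± 0.12 with talc, and by 0.58 ± 0.11, 0.55 ± 0.11 and 0.44 ± 0.12 under estradiol. Utp14a, which activates the helicase that dismantles the processome, rose by 0.45 ± 0.13 and 0.70 ± 0.13. Utp11 passed in the comparison without estradiol only (0.47 ± 0.10, against 0.22 ± 0.10 with adjusted p = 0.26) and Utp23 in the one with it only (0.43 ± 0.12, against 0.11 ± 0.12 with adjusted p = 0.72). The difference between those comparisons passed for neither gene (interaction adjusted p 0.85 and 0.82). Rrp7a (0.22 ± 0.16 and 0.04 ± 0.16) and Utp3 (0.04 ± 0.16 and 0.11 ± 0.16) passed in neither.

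Of the 7 snoRNP proteins, the same 4 rose in each comparison: Fbl, Nop58, Rrp9 and Nolc1. Box C/D particles guide methylation of ribosomal RNA and include the U3 particle of the processome, and H/ACA particles guide pseudouridine formation. Nolc1, a chaperone of snoRNPs, read 7.89, 8.13 and 8.04 with vehicle, 8.75, 8.69 and 9.05 with talc, 8.14, 7.98 and 8.03 with estradiol and 8.70, 8.75 and 8.85 with both. The TiO2 arrays read 7.67, 7.85 and 8.03, and with estradiol 7.72, 7.97 and 7.59, inside or below the span of the vehicle and estradiol arrays. Nolc1 rose by 0.81 ± 0.13 (adjusted p = 0.00059) and 0.71 ± 0.13 (adjusted p = 0.0022), but its brightest probe set alone gave 0.13 in each and did not pass.

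Among the proteins of box C/D particles, Nop58 rose by 0.78 ± 0.14 and 0.80 ± 0.14, and Rrp9, which binds U3, by 0.51 ± 0.15 and 0.70 ± 0.15. Nop56, the partner of Nop58, missed the threshold by little in both, at 0.40 ± 0.12 (adjusted p = 0.055) and 0.40 ± 0.12 (adjusted p = 0.057). Fbl, fibrillarin, the methyltransferase of these particles, was measured by 2 probe sets and read 8.88, 8.77 and 8.61 with vehicle, 9.20, 9.22 and 9.05 with TiO2 and 9.50, 9.47 and 9.57 with talc. Its TiO2 arrays thus lay between the other groups without overlap. With estradiol it read 8.98, 8.78 and 8.66, with TiO2 added 9.03, 9.04 and 9.48, and with talc added 9.30, 9.35 and 9.37. Fbl rose with talc by 0.76 ± 0.12 (adjusted p = 0.00077) and by 0.53 ± 0.12 under estradiol (adjusted p = 0.013). Of the 2 H/ACA proteins among the 55, Dkc1, the pseudouridine synthase dyskerin, changed by 0.16 ± 0.15 and -0.02 ± 0.15 and Nop10 by -0.03 ± 0.12 and -0.17 ± 0.12, the lowest change of the 55 in each comparison.

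The factors that finish and export the 40S subunit held the largest rise. All 6 rose with talc and 5 of 6 under estradiol, with a median of 0.81 in each. Rrp12, a repeat protein that accompanies pre-ribosomes out of the nucleus, read 6.62, 6.29 and 6.52 with vehicle and 8.03, 7.90 and 8 with talc. It read 6.21, 6.34 and 6.52 with estradiol and 7.78, 7.67 and 7.89 with talc and estradiol. The TiO2 arrays read 6.60, 6.41 and 6.79, and 6.52, 6.24 and 6.31 with estradiol, so the lowest talc array was well above the highest array of any other group. Rrp12 changed by 1.5 ± 0.13 (2.82-fold, adjusted p = 3.7e-06) and 1.42 ± 0.13 (2.68-fold, adjusted p = 7.1e-06). The brightest of its 27 probe sets gave -0.07 and 0.29 and passed in neither, while 26 of the 27 were higher with talc in both comparisons.

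Tsr1, a GTPase-like protein of late 40S particles, rose by 1.01 ± 0.13 and 0.92 ± 0.13, and its brightest probe set gave 0.55 and -0.02. Bysl rose by 0.88 ± 0.13 and 1.04 ± 0.13. Pno1 and its partner Nob1, the endonuclease that makes the last cut of 18S RNA, rose by 0.73 ± 0.15 and 0.67 ± 0.13 with talc and by 0.69 ± 0.15 and 0.58 ± 0.13 under estradiol. Ltv1, the smallest change of these 6, rose by 0.63 ± 0.13 with talc (adjusted p = 0.0047) and was at 0.42 ± 0.13 under estradiol (adjusted p = 0.059).

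Of the 15 factors of 60S assembly, 10 rose with talc, 13 under estradiol and 10 in both. Nop2, which methylates 28S RNA, had the smallest adjusted p of all 55 genes in each talc comparison. It read 8.74, 8.70 and 8.82 with vehicle, 9.94, 10.01 and 10.20 with talc, 8.60, 8.69 and 8.81 with estradiol and 9.90, 9.79 and 10.05 with both. Its TiO2 arrays read 8.73, 8.92 and 8.81, and 8.74, 8.70 and 8.67 with estradiol, 1 of them above the highest control array and all far below the talc arrays. Nop2 changed by 1.29 ± 0.10 (2.45-fold, adjusted p = 2e-06) and 1.21 ± 0.10 (2.32-fold, adjusted p = 4e-06), and all 16 of its probe sets were higher with talc in both comparisons.

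The 3 proteins of the PeBoW complex, needed for 28S and 5.8S processing, all rose in both: Bop1 by 0.93 ± 0.13 and 0.81 ± 0.13, Wdr12 by 0.73 ± 0.14 and 0.65 ± 0.14, and Pes1 by 0.58 ± 0.10 and 0.57 ± 0.10. Nop16 rose by 0.95 ± 0.13 and 0.91 ± 0.13. Rrs1, which brings the 5S particle into the subunit, rose by 0.72 ± 0.16 and 0.61 ± 0.16. Noc3l rose by 0.73 ± 0.12 and 0.61 ± 0.12, and its partner Noc2l was at 0.40 ± 0.14 (adjusted p = 0.091) and rose by 0.71 ± 0.14. Rrp8, Nol12 and Rrp15 rose by 0.51 ± 0.11, 0.52 ± 0.12 and 0.33 ± 0.08 with talc and by 0.44 ± 0.11, 0.42 ± 0.12 and 0.42 ± 0.08 under estradiol. Nol8 and Nol9, the second a polynucleotide kinase, were at 0.37 ± 0.15 and 0.34 ± 0.12 with talc without passing and rose by 0.52 ± 0.15 and 0.58 ± 0.12 under estradiol. The related genes Rrp1 (0.02 ± 0.09 and 0.19 ± 0.09) and Rrp1b (0.30 ± 0.10 and 0.25 ± 0.10) passed in neither.

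The last 5 genes encode nucleolar proteins of broader use, and 3 of the 5 rose in both comparisons. Pinx1, a nucleolar protein that also inhibits telomerase, read 6.66, 6.60 and 7.01 with vehicle and 8.19, 8.12 and 8.32 with talc. It read 6.37, 6.55 and 6.89 with estradiol and 7.93, 7.81 and 8.04 with talc and estradiol. Its TiO2 arrays read 6.87, 6.67 and 6.87, and 6.52, 6.42 and 5.79 with estradiol, the last being the lowest of the 18. Pinx1 changed by 1.46 ± 0.17 (2.74-fold, adjusted p = 5.1e-05) and 1.33 ± 0.17 (2.51-fold, adjusted p = 0.00019). Gnl3, the GTP-binding protein nucleostemin, rose by 0.99 ± 0.16 in each, and Ddx21, an RNA helicase, by 0.90 ± 0.12 and 0.97 ± 0.12.

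Nucleolin (Ncl) and nucleophosmin (Npm1), the abundant structural proteins of the nucleolus, did not pass in either comparison. Ncl read 9.36, 9.93 and 9.85 with vehicle, 9.63, 9.59 and 9.86 with talc, 9.54, 9.61 and 9.75 with estradiol, and 9.46, 9.96 and 9.87 with both. Npm1 read 6.84, 6.88 and 7.41, then 6.99, 6.95 and 7.19, then 7.14, 6.90 and 6.83, then 6.68, 7.03 and 6.90 in the same order. The groups overlapped for both genes. Ncl changed by -0.02 ± 0.16 (95% interval -0.37 to 0.32) and 0.13 ± 0.16, and Npm1 by 0.00 ± 0.23 (-0.48 to 0.49) and -0.09 ± 0.23, so a rise of the size seen in Gnl3 lay outside their intervals with talc alone. Probe sets of these genes also split: 4 of 12 for Ncl and 2 of 8 for Npm1 were higher in both comparisons, against 15 of 16 for Gnl3.

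**Figure D2:**
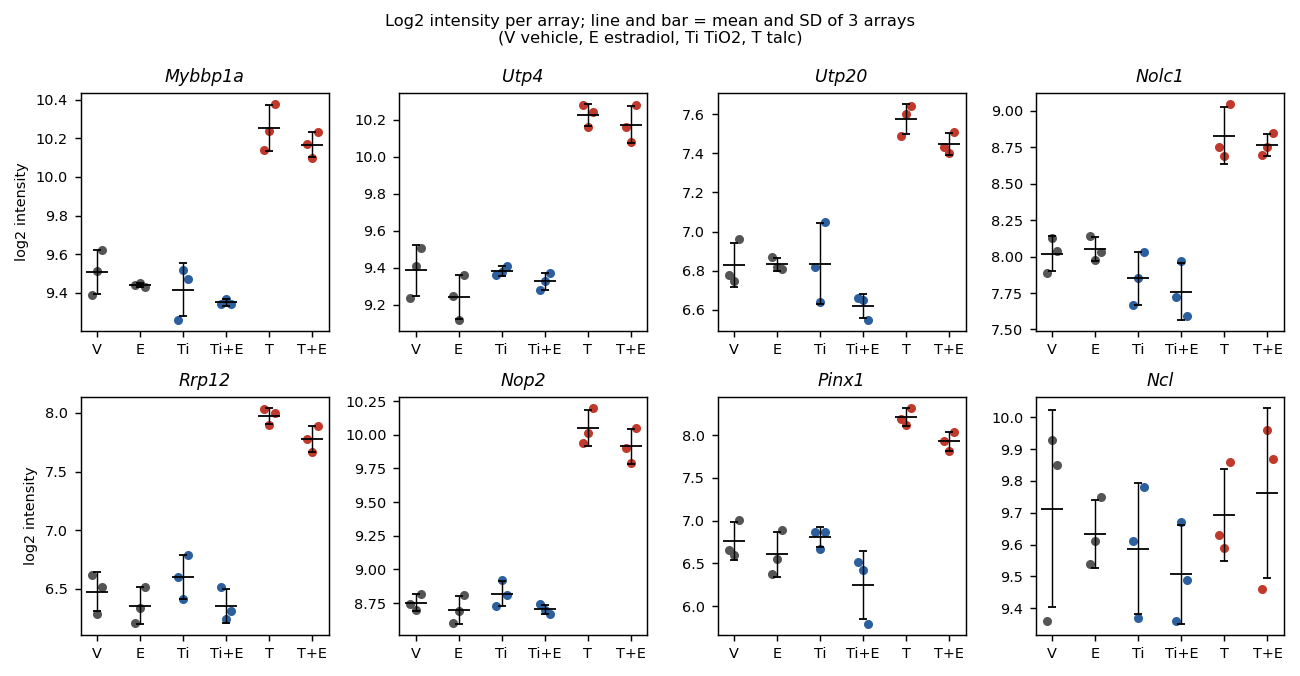
Points are the log2 intensities of single arrays in the 6 groups (V vehicle, E estradiol, Ti TiO2, T talc), and the line and bar give the mean and SD of 3 arrays. The 7 genes with the smallest p in their role are followed by Ncl. Each vertical axis has its own range and does not start at 0. In the 7 genes all 6 talc arrays lie above the 12 others, and in Ncl the groups overlap.

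Taken probe set by probe set, the 55 genes had 878 probe sets, of which 88.5% were higher with talc than vehicle and 91.1% higher with talc under estradiol, against 50.4% and 49.9% of all 233753 probe sets with 1 symbol. In both comparisons 83.4% were higher, against 29% of all. For 13 genes every probe set was higher in both. With TiO2 against vehicle 46% of the 878 were higher, and 48.7% of all. Probe sets of 1 gene share its transcript and are not replicates.

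Gene by gene, the count depended on how probe sets were combined. With the median over probe sets in place of the mean, 23 of 55 rose with talc and 27 under estradiol, and with the brightest probe set alone 36 and 24. The shares of all genes under these alternatives, and with arrays left out, are not given here. Whether the whole table lost calls alike was not tested. Genes that lost their call with the brightest probe set and changed by under 0.3 there were, besides Rrp12 and Nolc1 in both comparisons, Utp11 (0.05), Rrp36 (0.19), Rrp9 (0.24) and Rrp15 (0.24) with talc, and Tsr1 (-0.02), Nol10 (0.02), Utp23 (0.03), Rrp36 (0.22) and Noc2l (0.27) under estradiol. Leaving out 1 array at a time left 31 of the 41 genes passing every time with talc and 30 of the 43 under estradiol. Arrays of a group are counted here in the order of the series, the reverse of the numbers in their titles. The 10 that lost their call with talc for at least 1 array left out, the first talc array bringing the lowest count (33), were Polr1a, Utp15, Utp6, Utp14a, Nol6, Nol10, Nop14, Rrp9, Rrp15 and Nol12. Under estradiol the lowest count, 31, came without the third array of talc with estradiol, and the 13 genes were Polr1a, Utp6, Utp18, Utp23, Nol6, Noc4l, Fbl, Nob1, Pno1, Rrs1, Rrp8, Nol8 and Nol12.

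Set directly against TiO2, the other particle, talc gave a similar picture. Without estradiol 41 of 55 genes were higher with talc and 0 lower (4.61% of all genes higher, 5.35% lower), with a median difference of 0.62, and with estradiol in both groups 44 were higher and 0 lower (6.66% of all genes higher, 2.87% lower), with a median of 0.60. The talc arrays lay above the TiO2 arrays without overlap for 48 (14.2% of all genes) and 47 (16.3%) of the genes. Without estradiol, the talc arrays of Nop10 lay below its TiO2 arrays without overlap, and its difference did not pass. These comparisons use the same talc arrays as those above, so the counts are not independent. The count without estradiol was 27 with the median over probe sets, and the count with it was 23 with the brightest probe set. Shares of all genes for these alternative counts are not given. Rrp12 and Pinx1 differed from TiO2 by 1.38 ± 0.13 and 1.41 ± 0.17 without estradiol and by 1.43 ± 0.13 and 1.68 ± 0.17 with it. Nop56 passed here, at 0.59 ± 0.12 (adjusted p = 0.0051) and 0.61 ± 0.12 (adjusted p = 0.0049), and Rrp1b passed with estradiol (0.54 ± 0.10, adjusted p = 0.0025) and not without (0.23 ± 0.10, adjusted p = 0.17). Fbl did not pass, at 0.36 ± 0.12 (adjusted p = 0.081) and 0.16 ± 0.12 (adjusted p = 0.49).

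With TiO2 none of the 55 genes passed by limma. Against vehicle the median change was -0.01, from -0.32 for Tsr1 to 0.40 for Fbl, and 3 genes had an unadjusted p under 0.05 where 8.16% of all genes did. No gene of the 23102 passed (0%), so the 0 of 55 holds no more than the whole table does. Under estradiol the median was -0.03, 0 of 55 passed (0.00433% of all genes), and 4 had an unadjusted p under 0.05 (8.91% of all genes). The smallest adjusted p was that of Fbl both times, 0.46 for 0.40 ± 0.12 and 0.43 for 0.38 ± 0.12. The upper end of the 95% interval was under 0.5 for 53 of the 55 genes in each comparison.

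**Figure D3:**
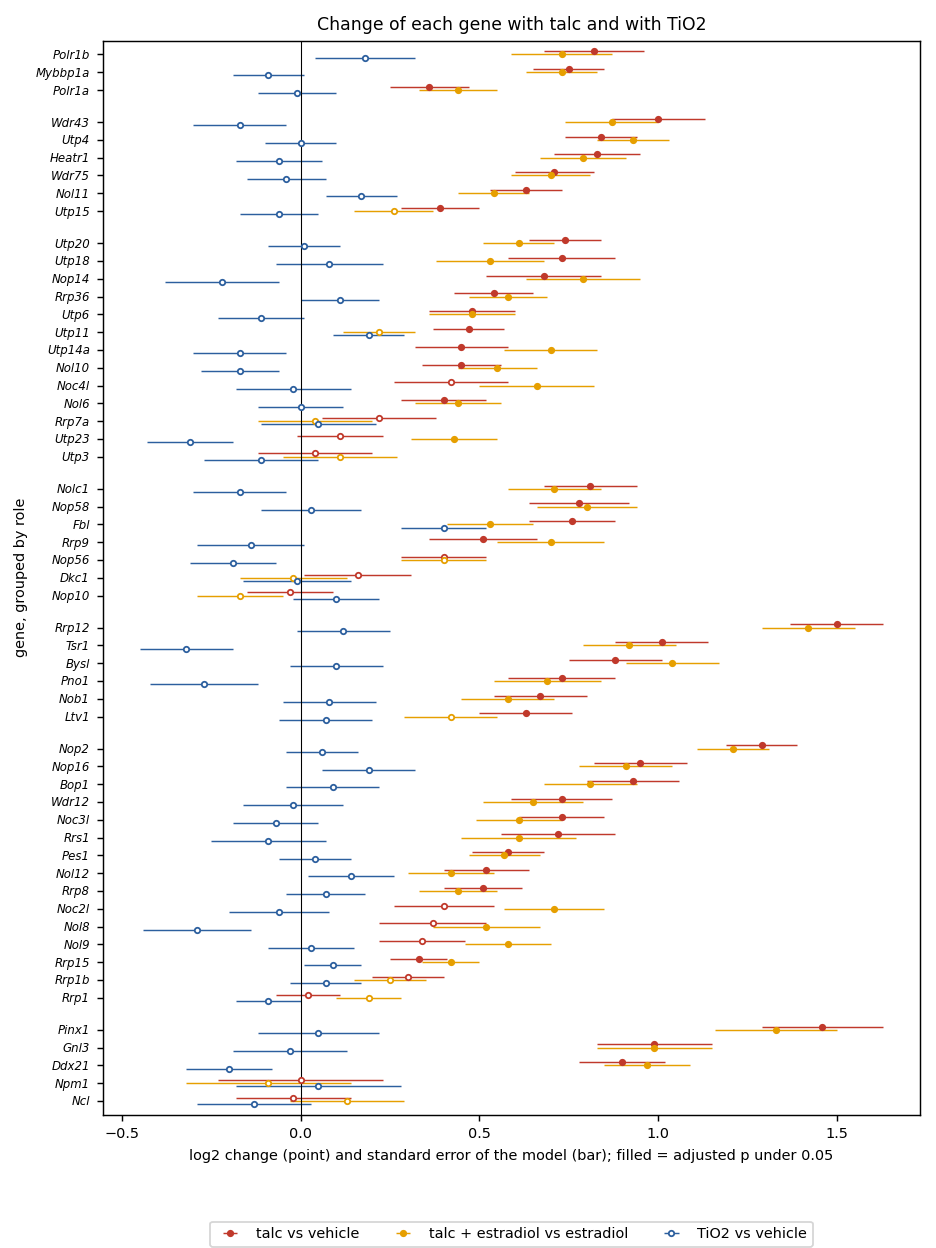
For each of the 55 genes, grouped by role, the point gives the log2 change and the bar its standard error, for talc against vehicle (red), talc with estradiol against estradiol (orange) and TiO2 against vehicle (blue). Filled points passed an adjusted p of 0.05. The red and orange points run up to 1.5 and 1.42 for Rrp12, and every blue point is open, the highest being Fbl at 0.40.

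Estradiol alone left the 55 genes near vehicle, with a median change of -0.06, from -0.26 for Rrp9 to 0.13 for Nop10. None passed by limma (0% of all genes), and 0 of 55 had an unadjusted p under 0.05 (4.87% of all genes). Added to talc, estradiol gave a median of -0.08 with 0 passing (0% of all genes) and 1 gene, Nol9, under an unadjusted 0.05 (6.58% of all genes). Added to TiO2, it gave a median of -0.07 with 0 passing (0.00866% of all genes in either direction) and 3 under an unadjusted 0.05 (13% of all genes). The lowest adjusted p there was 0.22 for Polr1b, at -0.49 ± 0.14.

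Whether estradiol altered the talc response was tested as an interaction, the talc change with estradiol minus the talc change without it. Its median over the 55 genes was -0.04, from -0.25 for Utp11 to 0.32 for Utp23. None passed by limma (0% of all genes) and 0 had an unadjusted p under 0.05 (6.32% of all genes). The 95% intervals reached from -0.78 to 0.72 over the genes, with a median half-width of 0.38. They are not adjusted for the number of genes, so differences between the arms of that size, or somewhat larger, might not pass with 3 arrays a group. The matching TiO2 interaction passed for 0 genes (0% of all genes), with an unadjusted p under 0.05 for 2 (8.05% of all genes) and the lowest adjusted p, 0.50, for Polr1b.

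Related gene lists were counted in the same way. Of 76 other assembly factors outside the 55, 38 rose with talc and 40 under estradiol, 31 in both, and 0 fell, with medians of 0.39 and 0.44. Genes of the related lists that passed in both were ranked by their change with talc against vehicle alone. The 3 largest rises were Wdr74, a 60S factor (0.87 ± 0.13 and 0.96 ± 0.13), Gtpbp4, a GTPase of 60S assembly (0.87 ± 0.14 and 0.80 ± 0.14), and Nhp2, an H/ACA protein (0.83 ± 0.13 and 0.74 ± 0.13). Under estradiol the order differed, with Ftsj3 at 0.93, for example. Nhp2 therefore rose although its partners Dkc1 and Nop10 did not pass. Among 14 other subunits and factors of RNA polymerase I, 2 rose with talc and 3 under estradiol. Those rising in both were Polr1e (0.40 ± 0.11 and 0.52 ± 0.11) and Rrn3, the initiation factor that recruits the polymerase (0.51 ± 0.10 and 0.42 ± 0.10).

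The RNA exosome, which trims and degrades precursor RNA, had 4 of 11 genes rising with talc and 3 under estradiol, and RNA polymerase III, which makes 5S RNA, 3 and 2 of 9 subunits measured. Of the structural proteins of the ribosome, 1 of 45 measured cytosolic ribosomal protein genes, Rpl34, rose in each comparison (0.48 ± 0.14 and 0.71 ± 0.14), with medians of 0.08 and 0.05. Ribosomal protein genes have many near-identical pseudogenes, so probe sets of 1 symbol can still read several copies. Activators of the Myc network bind the E-box word and are known regulators of ribosome biogenesis genes. Of 10 genes of the network 0 rose in either comparison, where 3.94% and 4.13% of all genes rose. Myc itself changed by 0.02 ± 0.15 and 0.22 ± 0.15, and Mxd4, a repressor of the network, fell by 0.51 with talc (SE 0.11, adjusted p = 0.0082) and was at -0.37 ± 0.11 under estradiol (adjusted p = 0.059). None of the genes in these lists fell in both comparisons. RNA levels do not measure the activity of Myc, and a part of the network in the rises above was not tested.

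**Figure D4:**
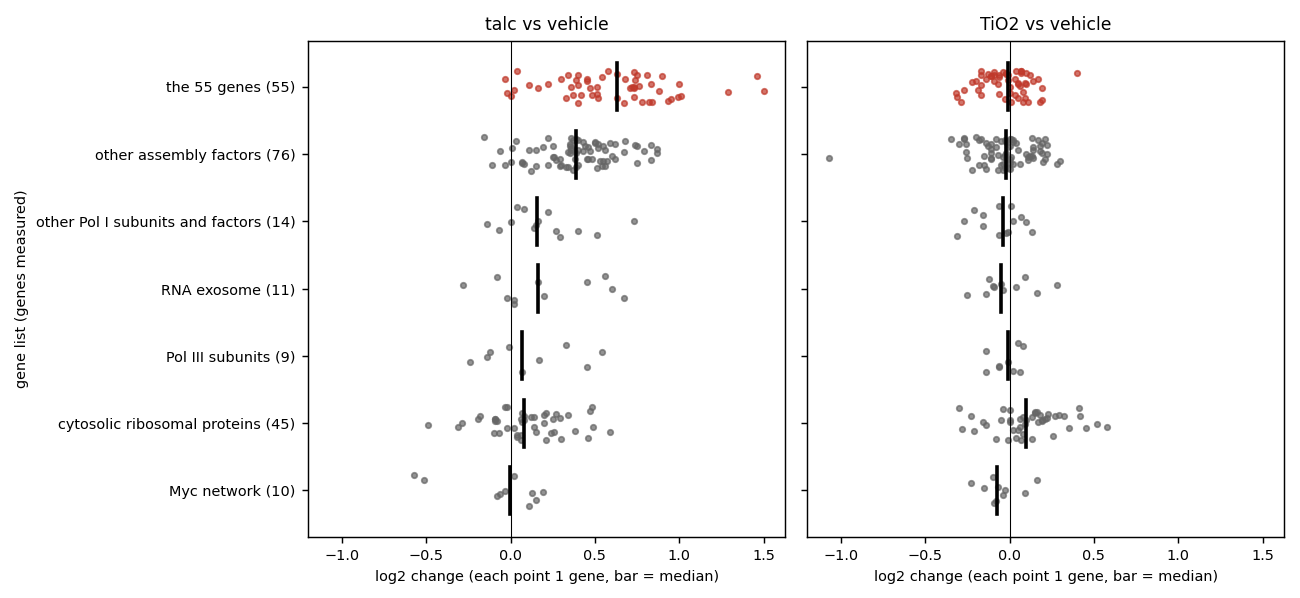
Each point is the log2 change of 1 gene, for talc against vehicle (left) and TiO2 against vehicle (right) on the same axis, and the black bar is the median of the list. With talc the medians are 0.63 for the 55 genes, 0.39 for other assembly factors and 0.08 for ribosomal proteins, and with TiO2 they are -0.01, -0.02 and 0.10.

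Promoter words were counted by outcome as a description. E-box words stood in 10 of the 31 genes with a window that rose in both talc comparisons (32.3%) and in 1 of the 8 that passed in neither (12.5%). Among the other assembly factors the share was 12 of 65 (18.5%). The ETS word gave a like split, 11 of 31 (35.5%) and 1 of 8 (12.5%), and stood in 31 of 65 other assembly factors (47.7%). The YY1 word stood in 4 of 31 (12.9%), 0 of 8 and 7 of 65 (10.8%) of these sets. The NRF1 word stood in 1 of 31 (3.23%), 0 of 8 and 1 of 65 (1.54%). In the windows of the 55 genes 4 of the 12 E-box words lay upstream of the start, and the median position was 16 bases after it.

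Median intensities of the arrays were alike, between 45.6 and 48. The upper quartile was lower with TiO2 and estradiol, at 233.5, 231.6 and 222.2, than in all other arrays (237.9 to 249.1). That group is the reference for talc with estradiol against TiO2 with estradiol. What the lower quartile adds to the counts of that comparison was not tested. All 10 macrophage markers lay between the 67.9th (Adgre1) and 99.9th percentile of gene values, a rough check since probe brightness is not a level per transcript. Adgre1 and Itgam, surface markers of macrophages, fell with talc by 0.79 and 0.57 (adjusted p = 0.0052 and 0.0016). Under estradiol Itgam fell by 0.37 (adjusted p = 0.033), Cd14, the co-receptor for lipopolysaccharide, rose by 0.37 (adjusted p = 0.015), and Adgre1 was at -0.18 (adjusted p = 0.64). The other 7 markers passed in neither. The mean of the 10 macrophage markers lay between 10.46 and 10.50 with vehicle, 10.28 and 10.39 with talc, 10.41 and 10.42 with estradiol and 10.38 and 10.44 with talc and estradiol. With TiO2 it lay between 10.32 and 10.48, and with TiO2 and estradiol between 10.34 and 10.37. Talc arrays at 10.30 and 10.28 lay below every array without talc, and the talc array at 10.39 did not. The median of the 10 markers lay between 10.67 and 10.76 with talc, below the lowest array without talc, 10.82. With talc and estradiol this median lay between 10.78 and 10.87, overlapping arrays without talc. The part of these differences in the results above was not tested. None of the measured markers of epithelial, fibroblast, lymphocyte, granulocyte and endothelial cells passed in either talc comparison.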

How the data were processed

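Affymetrix arrays of total RNA were read from the authors' deposited series table, in which each probe set has a linear intensity per array (1.458 to 17256). RMA was used, per the submitters' processing notes; its version, the genome build and the step back to a linear scale are not given in the sources used here. Log2 was taken first, since the design had assumed log2 values. Of 269751 probe sets 233753 had 1 gene symbol, 5106 several and 30892 none, and the mean over those with 1 symbol gave 23102 gene values, after 2247 symbols were updated to RefSeq. R 4.3.3 and limma 3.58.1 fitted 1 mean per group over 18 arrays (lmFit, eBayes, two-sided), with Benjamini-Hochberg adjustment over all genes of a comparison and a threshold of 0.05. The fit was tested on simulated data. The number of arrays limits the precision.

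The members, their roles and the other lists were chosen with earlier results of these data known. Genes were named with values where they passed in a talc comparison with arrays that did not overlap, or had the largest or smallest talc change of their role; the gene with the smallest p of each role is shown array by array, and other cases named were chosen after their values were seen. From the other lists, the 3 largest rises with talc against vehicle were named among genes that passed in both talc comparisons. Of 54 ribosomal protein genes listed 45 had a probe set of their own, and of 10 RNA polymerase III subunits 9. The labels number arrays group by group, so any order of processing cannot be told apart from group, and they give no pairing. Alternatives were the probe-set summary, a filter on low values, normalization, the variance model, array weights, the arrays fitted and each array left out.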

Additional observations from a re-analysis of the deposited data

How the results depend on the processing

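No alternative gave a fall that passed for any of the 55 genes in a talc comparison. The count of genes that rose moved by over 1.5 times with the way probe sets were combined: the median over probe sets gave 23 with talc against vehicle, 27 with talc under estradiol and 27 for talc against TiO2, and the brightest probe set gave 24 with talc under estradiol and 23 for talc against TiO2 with estradiol. The shares of all genes under the alternatives are not given, so whether calls dropped alike over the whole table is not shown. The cause was not tested. The brightest probe set turned the sign for Rrp12 with talc (-0.07) and for Tsr1 with talc under estradiol (-0.02). Leaving out 1 array at a time gave 33 to 38 with talc, 31 to 38 under estradiol, 35 to 39 against TiO2 and 35 to 39 against TiO2 with estradiol. The other alternatives stayed within 1.5 times of the main counts of 41, 43, 41 and 44, and the TiO2, estradiol and interaction comparisons gave 0 under each one run. Over all alternatives 18 of the 41 genes with talc and 15 of the 43 under estradiol kept their call every time. No paired analysis was possible because the labels give the groups no shared replicate numbers. With 3 arrays a group the median half-width of a 95% interval was 0.26, without adjustment for the number of genes. A true change of that size, or somewhat larger, could be missed in a single gene at the adjusted threshold, as the values of Nop56 above show.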
